A study of Mus musculus with 116 samples.

Results

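RNA levels of FDB1 cells after 12 hours in GM-CSF were compared with those at 0 hours, the moment at which the cells left IL-3. The comparison was made directly on 4 of the 116 2-colour arrays of the series, chosen because their titles pair these RNAs: 2 arrays with opposite dyes for replicate 1 and 2 for replicate 2. FDB1 is a growth-factor-dependent mouse myeloid line. Cells of the 12-hour group had been kept in medium with 10% serum and IL-3 at 500 U/mL, were washed 3 times and then received 500 U/mL of GM-CSF for 12 hours. Parental 0-hour cells were the same line in the IL-3 medium with no time in GM-CSF, so serum and earlier growth in IL-3 were common to both. For replicate 1 the source label of the 0-hour RNA names GM-CSF and for replicate 2 it names IL-3, while the titles read 0 hours for both and the series' design equates the conditions. Cells of the same line carrying the FI-Delta or the V449E receptor mutant, taken 12 hours after IL-3 was withdrawn and at their own 0 hours, serve as a second setting. Each condition has 2 RNAs. Nothing in the labels says that these were grown apart, so a p-value here takes in the spread between such RNAs, which may be technical. For each probe that spread is estimated over all 18 conditions of the series, not from the compared conditions alone.

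IL-3 and GM-CSF bind receptors that share a signalling beta chain, and through it activate JAK2, STAT5, ERK and PI3-kinase in myeloid progenitors. FDB1 cells are known for dividing without maturing in IL-3 and for maturing towards granulocytes and macrophages in GM-CSF. FI-Delta and V449E are mutants of that beta chain that signal without added ligand. The switch at 0 hours therefore takes away IL-3 and supplies GM-CSF, and the groups hold no parental cells left without any factor.

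All values are log2 differences, so 1 is a 2-fold change. Positive values mean a higher level after 12 hours in GM-CSF than in parental cells at 0 hours. The signs rest on reading the deposited values as log2 of Cy5 over Cy3, which is likely but is stated nowhere in the labels. Single-array values are given in a fixed order: replicate 1 with the GM-CSF RNA in Cy5, replicate 1 with it in Cy3, then replicate 2 in the same order of dyes. The tested value is a fit over the whole series, in which the GM-CSF 12-hour RNA lay on 4 arrays per replicate and the parental 0-hour RNA on 16. Replicate 1 of the direct arrays was hybridised to slides of print run 1 and replicate 2 to slides of print run 2, so replicate and print run cannot be told apart and the values per replicate are also the values within each print run. A ratio holds no level, so the presence of myeloid markers in these cells could not be read. In RNA from whole cultures, fewer cells of a type and less RNA per cell cannot be told apart.

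After 12 hours in GM-CSF, 637 of 21797 probes passed the threshold (limma, Benjamini-Hochberg adjusted p under 0.05), or 2.92%. Of these, 266 were higher (1.22% of probes) and 371 lower (1.7%), and 16 and 9 of them changed at least 2-fold. At an unadjusted p under 0.05 there were 3738 probes. All 4 direct arrays had the fitted sign for 578 of the 637 (90.7%), while 24.4% of all probes had 4 arrays of a single sign. The values of the replicates had the same sign for 628 of the 637, against 57.2% of all probes. The fit that chose the 637 holds these 4 arrays, so both shares follow in large part from that choice and are descriptions only. Replicate 1 moved more: the median size of a passing probe was 0.54 in replicate 1 and 0.34 in replicate 2. The count rests on replicate 1, since 66 probes passed without the GM-CSF 12-hour RNA of replicate 1 and 29 without the parental 0-hour RNA of replicate 1, against 622 and 721 without those of replicate 2. Of these 622 and 721 probes, 347 and 341 were among the 637. In a fit without the 4 direct arrays, added after the data had been seen, all 30 of the highest rises and deepest falls kept their sign, at a median of 0.933 times the mean of the direct arrays (0.567 to 1.46). These genes were chosen by a fit that holds the other arrays too, and both rest on the same RNAs, so this is no independent support.

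**Figure D1:**
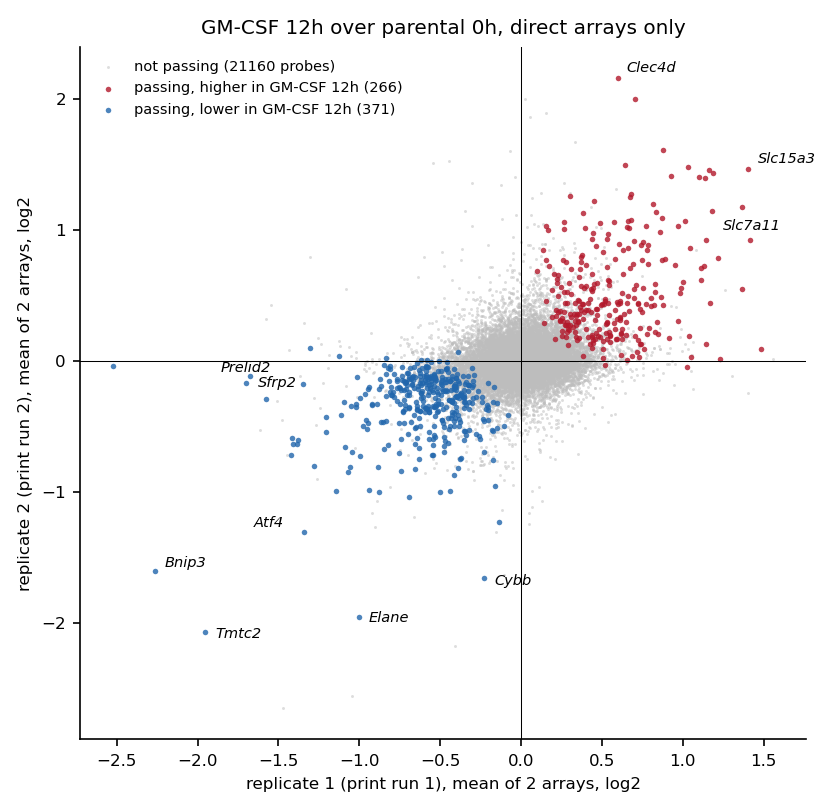
Each point is a probe. The horizontal axis gives the mean log2 ratio of the 2 arrays of replicate 1 (print run 1) and the vertical axis that of replicate 2 (print run 2), both GM-CSF 12h over parental 0h from the direct arrays; red and blue points passed the test of the whole-series fit (266 higher, 371 lower) and grey points did not. Tmtc2 and Bnip3 lie far out on both axes, while Prelid2 and Sfrp2 lie near 0 in replicate 2 and Cybb near 0 in replicate 1.

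The highest rises were in a lysosomal transporter, ferritin, C-type lectin receptors and the cystine transporter. Slc15a3, a lysosomal transporter of histidine and small peptides, read 1.46, 1.34, 1.56 and 1.36 on the 4 arrays. Its fitted difference was 1.40 (SE 0.18, limma adjusted p = 0.000746), or 2.65-fold. Fth1, the ferritin heavy chain that stores iron, read 1.66, 1.07, 1.17 and 1.18, with a fitted 1.39 (SE 0.24, adjusted p = 0.00407). In both genes the arrays of the 2 replicates overlapped. Fth-ps3, annotated as a ferritin pseudogene, rose by 1.11 (SE 0.25, adjusted p = 0.017), but its probe may take up Fth1 RNA and its rise is uncertain as a separate event.

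Slc7a11 encodes the cystine-glutamate antiporter that feeds glutathione synthesis. It read 1.13, 1.23, 0.96 and 1.33, with a fitted 1.21 (SE 0.18, adjusted p = 0.00175). Sqstm1, the autophagy receptor p62, read 1.10, 1.17, 1.56 and 1.23, with a fitted 1.19 (SE 0.21, adjusted p = 0.0042). The arrays of Slc7a11 overlapped between replicates, and for Sqstm1 both arrays of replicate 2 were above both of replicate 1. Cstb, the cysteine protease inhibitor cystatin B, read 0.94, 1.26, 1.38 and 1.44, with a fitted 1.14 (SE 0.14, adjusted p = 0.000746). Upp1, uridine phosphorylase, read 0.97, 1.36, 1.55 and 1.36 and rose by 1.19 (SE 0.19, adjusted p = 0.00251). P2rx4, an ATP-gated cation channel, read 1.09, 0.66, 1.44 and 1.79 and rose by 1.15 (SE 0.18, adjusted p = 0.00205). For P2rx4 both arrays of replicate 2 were above both arrays of replicate 1.

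Among the 15 highest rises, Slc15a3, Fth1, Slc7a11, Upp1, P2rx4 and Cstb passed whichever of the 4 RNAs was left out. Their highest adjusted p in those fits was 0.0422, for Slc7a11. The other members of the 15 were Itgae at 1.08, Ugt2b37 at 1.01, Ms4a6d at 1.01, Anpep at 1.00 and Vwa5a at 0.97, beside Clec4n, Clec4d, Sqstm1 and Fth-ps3. Itgae is the integrin alpha E chain, Ugt2b37 a glucuronosyltransferase and Anpep the surface aminopeptidase CD13. Without the GM-CSF 12-hour RNA of replicate 1, 7 of the 15 rises passed, and without the parental 0-hour RNA of replicate 1, 8 did.

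**Figure D2:**
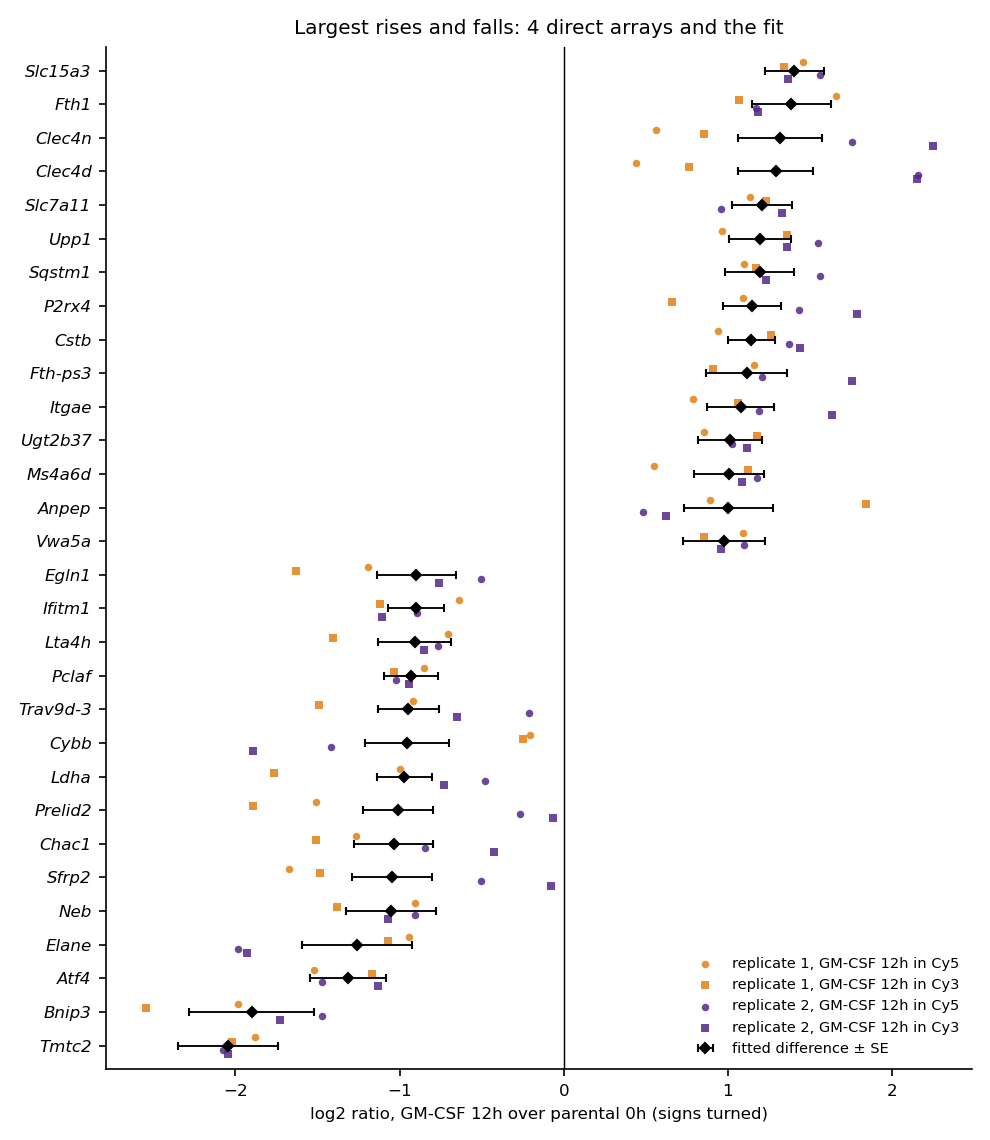
The 15 highest rises and the 15 deepest falls, with the log2 ratio of GM-CSF 12h over parental 0h on the horizontal axis, turned so that positive is higher after 12 hours in GM-CSF. Circles and squares are single direct arrays of replicate 1 (orange) and replicate 2 (purple). Black diamonds are the fitted difference ± SE, with 2 RNAs per condition and the spread pooled over all 18 conditions. All 4 arrays lie on the same side of 0 for each gene, as the rule for choosing them required. Clec4n, Clec4d, Cybb, Prelid2 and Sfrp2 show the replicates apart.

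Few macrophage markers passed. Of 42 measured members of the macrophage list, 4 rose, 0 fell and 33 were positive, with a median of 0.22. Over all 15097 gene symbols 8050 were positive and the median was 0.01, and 228 symbols (1.51%) rose while 310 (2.05%) fell. The 4 that rose were the lectins Clec4n, Clec4d and Clec4e and the membrane protein Ms4a6d. Clec4n (Dectin-2) and Clec4d are C-type lectins that sense fungal and mycobacterial surfaces, and Clec4e (Mincle) lies in the same gene cluster on chromosome 6.

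Clec4n read 0.56 and 0.85 in replicate 1 and 1.76 and 2.25 in replicate 2, with a fitted 1.32 (SE 0.26, adjusted p = 0.0078). Clec4d read 0.44, 0.76, 2.16 and 2.15, with a fitted 1.29 (SE 0.23, adjusted p = 0.00482). Clec4e read 0.85, 0.43, 1.25 and 1.75, with a fitted 0.97 (SE 0.24, adjusted p = 0.0327). All 3 lectins were higher in both arrays of replicate 2 than in both arrays of replicate 1, and the size of the rise therefore depends on the replicate. Ms4a6d rose by 1.01 through 1 of its 2 probes. Established macrophage genes did not pass: Cd68 stood at 0.22, Cd14 at 0.66 and Adgre1, a surface receptor of macrophages, at 0.01. The count of 4 was 1 without the GM-CSF 12-hour RNA of replicate 1 or the parental 0-hour RNA of replicate 2, and 2 without the GM-CSF 12-hour RNA of replicate 2 or the parental 0-hour RNA of replicate 1.

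A few lysosomal genes rose. Of 35 measured, 4 rose (11.4%, against 1.51% of all symbols), 0 fell and 29 were positive, with a median of 0.23. Lipa, the acid lipase, rose by 0.64 (SE 0.17, adjusted p = 0.0417). Grn, progranulin, rose by 0.49 and Tpp1, a tripeptidyl peptidase, by 0.42. Atp6v0d1, a subunit of the proton pump, rose by 0.37. Grn had 0.54, 0.45, 0.58 and 0.29 on the arrays, so the replicates overlapped. The count was 0 without either RNA of replicate 1, and 2 and 1 without the GM-CSF 12-hour and the parental 0-hour RNA of replicate 2.

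Genes that defend against oxidants were the list with the largest share of rises. Of 23 measured members, 6 rose (26.1%, against 1.51% of all symbols) and 0 fell, with a median of 0.20. On the direct arrays the median was 0.38 in replicate 1 and 0.06 in replicate 2. Beside Fth1, Slc7a11 and Sqstm1 these were Cat (catalase), Nfe2l2 (the transcription factor NRF2) and Gclm (a subunit of glutamate-cysteine ligase). Cat read 0.76, 0.98, 0.83 and 1.36, and rose by 0.92 (SE 0.15, adjusted p = 0.00267) through 1 of its 2 probes. Nfe2l2 rose by 0.69 (SE 0.13, adjusted p = 0.00604), with 0.78 in replicate 1 and 0.74 in replicate 2. Gclm rose by 0.57 (SE 0.14, adjusted p = 0.0277), with 0.72 and 0.45. The count stayed between 4 and 6 when any of the 4 RNAs was left out. Of the 5 measured subunits of the phagocyte NADPH oxidase, 0 rose and Cybb fell, while 1.51% of all symbols rose and 2.05% fell. Cybb, the gp91phox catalytic chain, read -0.21 and -0.25 in replicate 1 and -1.42 and -1.90 in replicate 2, with a fitted -0.96 (SE 0.26, adjusted p = 0.0456). The replicates did not overlap. Cybb passed without the parental 0-hour RNA of replicate 1 (adjusted p = 0.0324) and did not pass without any other of the 4 RNAs (adjusted p up to 0.357).

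Among survival genes, 4 of the 28 measured members of the BCL2 family and death list rose and 1 fell, with a median of 0.04. That is 17.9% of the list, against 3.56% of all symbols. The anti-apoptotic paralogs Bcl2a1c and Bcl2a1d rose by 0.74 (SE 0.20, adjusted p = 0.0437) and 0.73 (SE 0.15, adjusted p = 0.0114). These copies are near-identical, so their probes may not separate them. Birc3, an inhibitor of apoptosis protein, rose by 0.77 through 1 of its 2 probes, and Bbc3, the pro-apoptotic PUMA, by 0.30. Casp8, the initiator caspase of death receptors, read -0.47, -0.69, -0.36 and -0.16 and fell by 0.44 (SE 0.08, adjusted p = 0.00386). Without either RNA of replicate 1, 0 members of this list passed.

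The deepest falls were in Tmtc2, Bnip3 and Atf4. Tmtc2, an endoplasmic reticulum membrane protein that transfers mannose to cadherins, read -1.88, -2.02, -2.08 and -2.05. Its fitted difference was -2.04 (SE 0.31, adjusted p = 0.00167), a 4.13-fold fall, and the 4 arrays lay close together. Bnip3, a mitochondrial outer membrane protein of mitophagy and cell death, read -1.98, -2.55, -1.47 and -1.73, with a fitted -1.90 (SE 0.38, adjusted p = 0.00985). All Bnip3 values were far below 0, and both arrays of replicate 1 were below both of replicate 2.

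Atf4 encodes the transcription factor that raises amino acid synthesis and transport genes when amino acids run short or the endoplasmic reticulum is stressed. It read -1.52, -1.17, -1.47 and -1.13, with a fitted -1.31 (SE 0.23, adjusted p = 0.0042), a 2.49-fold fall. The replicates overlapped. Tmtc2 and Atf4 each passed without 3 of the 4 RNAs and had an adjusted p of 0.0685 and 0.18 without the parental 0-hour RNA of replicate 1. None of the 15 deepest falls passed whichever RNA was left out, and 2 of them passed without the GM-CSF 12-hour RNA of replicate 1.

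The ATF4 and amino acid supply list held the largest share of changed genes of the 26 lists examined. Of 35 measured members, 13 fell and 1 rose, or 40.0%, against 3.56% of all symbols. The median was -0.22, with -0.40 in replicate 1 and -0.06 in replicate 2. Chac1, a glutathione-degrading enzyme and an ATF4 target, read -1.26, -1.51, -0.84 and -0.43 and fell by 1.04 (SE 0.24, adjusted p = 0.0216). Eif4ebp1, the inhibitor of cap-dependent translation, read -0.95, -1.47, -0.60 and -0.48 and fell by 0.83 (SE 0.15, adjusted p = 0.00552). In both genes each array of replicate 1 was below each of replicate 2.

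Among enzymes of serine and one-carbon metabolism on that list, some fell and others did not pass. Phgdh, the entry enzyme of serine synthesis, stood at 0.06 (adjusted p = 0.875) and Shmt1, the cytosolic serine hydroxymethyltransferase, at -0.06 (adjusted p = 0.836). Psat1, the next enzyme of serine synthesis, fell by 0.77 (SE 0.14, adjusted p = 0.00576), with -0.89 in replicate 1 and -0.81 in replicate 2. Psph, the last enzyme of that pathway, fell by 0.70. The mitochondrial folate enzymes Shmt2, Mthfd1l and Mthfd2 fell by 0.68, 0.61 and 0.58. Asns, asparagine synthetase, fell by 0.71 (SE 0.13, adjusted p = 0.00662), with -0.69 in replicate 1 and -1.03 in replicate 2. The glutamine transporter Slc1a5 fell by 0.52, Aldh18a1 of proline synthesis by 0.51, the cysteinyl-tRNA synthetase Cars by 0.49 and the transaminase Got1 by 0.36. Slc7a11, also an ATF4 target, was the member that rose. The 13 falls became 3 without the GM-CSF 12-hour RNA of replicate 1, 7 without that of replicate 2, 0 without the parental 0-hour RNA of replicate 1 and 10 without that of replicate 2, while Slc7a11 passed each time.

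The promoters of Asns, Chac1 and Slc7a11 are shown because the same kind of element stands in genes that moved in opposite directions. ATF4 binds C/EBP-ATF response elements, searched here as TGATGNAA on both strands in windows of 250 bases before to 50 after the start of each gene (RefSeq, GRCm38.p6). The Asns window is chr6:7693160-7693459 on the minus strand, that of Chac1 is chr2:119350992-119351291 on the plus strand, and that of Slc7a11 is chr3:50443564-50443863 on the minus strand. Each is printed 5′ to 3′ along the gene, with matches on either strand in capitals.
Asns: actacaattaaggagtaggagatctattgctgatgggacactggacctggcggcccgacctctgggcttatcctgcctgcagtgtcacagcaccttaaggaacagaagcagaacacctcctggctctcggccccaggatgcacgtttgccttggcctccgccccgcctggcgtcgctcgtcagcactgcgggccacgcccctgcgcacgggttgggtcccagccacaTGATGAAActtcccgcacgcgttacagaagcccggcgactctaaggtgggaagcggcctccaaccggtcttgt
Chac1: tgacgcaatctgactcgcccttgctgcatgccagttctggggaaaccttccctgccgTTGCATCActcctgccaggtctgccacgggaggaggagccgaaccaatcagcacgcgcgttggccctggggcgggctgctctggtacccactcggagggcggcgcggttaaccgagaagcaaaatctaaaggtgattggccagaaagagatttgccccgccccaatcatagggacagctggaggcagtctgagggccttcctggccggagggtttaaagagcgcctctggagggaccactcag
Slc7a11: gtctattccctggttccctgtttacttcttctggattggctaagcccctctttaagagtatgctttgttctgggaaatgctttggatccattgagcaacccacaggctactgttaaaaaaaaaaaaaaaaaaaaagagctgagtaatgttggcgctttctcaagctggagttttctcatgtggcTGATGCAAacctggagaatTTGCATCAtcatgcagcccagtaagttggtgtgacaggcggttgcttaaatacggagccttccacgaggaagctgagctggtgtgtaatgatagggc
Asns held 1 match, 23 bases before its start, Chac1 held 1 and Slc7a11 held 2. Of the 28 measured genes of the list that had a window, 10 (35.7%) held a match, and of the 11 of them that passed, 4 did: Asns, Chac1, Got1 and Slc7a11. Of all 27025 genes with a window, 4.51% held a match. A match describes the letters only.

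A minority of glycolytic genes fell. Of 18 measured, 4 fell (22.2%, against 2.05% of all symbols) and 0 rose, with a median of -0.16. Ldha, lactate dehydrogenase A, read -0.995, -1.76, -0.48 and -0.73 and fell by 0.97 (SE 0.17, adjusted p = 0.00385). The glucose transporter Slc2a3 read -0.92, -1.91, -0.64 and -0.53 and fell by 0.89 (SE 0.24, adjusted p = 0.0454). The lactate transporter Slc16a1 read -0.52, -0.99, -0.78 and -0.62 and fell by 0.70 (SE 0.12, adjusted p = 0.00333). Tpi1, triosephosphate isomerase, fell by 0.66 (SE 0.16, adjusted p = 0.0276). Ldha, Slc2a3 and Tpi1 fell further in replicate 1, while the arrays of Slc16a1 overlapped. Egln1, a prolyl hydroxylase that marks HIF-1 alpha for destruction, fell by 0.90 (SE 0.24, adjusted p = 0.0456), with arrays at -1.19, -1.63, -0.50 and -0.76. The count of 4 was 0 without either RNA of replicate 1.

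Bnip3 and Ldha, both among the deepest falls, are shown with their promoter windows because each holds the letters ACGTG, which are bound by HIF-1 and, within CACGTG, by MYC-MAX and USF proteins. The windows are chr7:138909457-138909756 on the minus strand and chr7:46845554-46845853 on the plus strand (RefSeq, GRCm38.p6), printed 5′ to 3′ along the gene with matches on either strand, overlapping ones included, in capitals.
Bnip3: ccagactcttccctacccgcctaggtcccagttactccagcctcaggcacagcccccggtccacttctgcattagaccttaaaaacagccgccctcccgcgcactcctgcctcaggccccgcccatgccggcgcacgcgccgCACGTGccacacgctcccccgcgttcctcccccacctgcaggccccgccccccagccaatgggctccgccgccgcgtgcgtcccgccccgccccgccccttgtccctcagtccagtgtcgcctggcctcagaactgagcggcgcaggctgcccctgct
Ldha: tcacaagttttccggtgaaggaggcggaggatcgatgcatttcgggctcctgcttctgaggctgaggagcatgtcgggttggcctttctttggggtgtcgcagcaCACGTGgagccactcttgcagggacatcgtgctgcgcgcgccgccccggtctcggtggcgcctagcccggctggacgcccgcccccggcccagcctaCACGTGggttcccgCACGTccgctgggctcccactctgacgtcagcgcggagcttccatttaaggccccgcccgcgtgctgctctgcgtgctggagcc
Bnip3 held 2 overlapping matches and Ldha held 5. Of 12 genes with a window among the 15 deepest falls, 3 held a match (25.0%), Egln1 being the other, against 21.8% of all 27025 genes. Of 17 measured glycolytic genes with a window, 14 held a match (82.4%), and of the 3 of those that passed, Ldha and Slc16a1 did.

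Some genes of proliferation fell by 12 hours. Of 40 measured G1/S and DNA replication genes, 6 fell, 0 rose and 35 were negative, with a median of -0.20, while 7047 of all 15097 symbols were negative. The replicative helicase subunits Mcm6, Mcm4 and Mcm3 fell by 0.74 (SE 0.15, adjusted p = 0.0109), 0.71 (SE 0.16, adjusted p = 0.0194) and 0.65 (SE 0.14, adjusted p = 0.017). Mcm3 read -0.58, -0.68, -0.53 and -0.80, so its replicates overlapped. Rfc4, a subunit of the clamp loader, fell by 0.47. The count also holds Mcm10, at -0.45 by its probe of lowest p but at -0.11 as a mean over its probes. Pclaf, the PCNA-associated factor, belongs to the 15 deepest falls and read -0.85, -1.03, -1.02 and -0.94, with a fitted -0.93 (SE 0.17, adjusted p = 0.00482).

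Of 34 measured G2/M and mitosis genes, 6 fell (17.65%, against 2.05% of all symbols), 0 rose and 31 were negative, with a median of -0.22. Top2a, the topoisomerase of chromosome condensation, fell by 0.56 (SE 0.14, adjusted p = 0.0335). The condensin subunit Smc2 fell by 0.47 through 1 of its 2 probes, the mitotic kinase Cdk1 by 0.46 and the spindle motor Kif11 by 0.42. Cdk1 had -0.08, -0.62, -0.53 and -0.54 on the arrays, so a single array of replicate 1 stood near 0. Of 22 measured genes of cell cycle exit, Mxd4, a MAX partner that opposes MYC, rose by 0.42 and 0 fell. That is 4.5% of the list, against 3.56% of all symbols. Mxd4 read 0.09, 0.36, 0.69 and 0.56, so both arrays of replicate 2 were above both of replicate 1. With arrays scaled to a common spread, 0 members of the cell cycle exit list passed. Without either RNA of replicate 1, 0 members of both proliferation lists passed.

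Some ribosome biogenesis genes fell too. Of 33 measured, 8 fell (24.2%, against 2.05% of all symbols), 0 rose and 31 were negative, with a median of -0.23. Lyar, a nucleolar factor, read -0.55, -0.38, -0.39 and -0.07 and fell by 0.62 in the fit (SE 0.11, adjusted p = 0.00552). Wdr43 fell by 0.53 and Nop58, a core protein of box C/D particles, by 0.49. Nop14 fell by 0.47 in the fit (SE 0.13, adjusted p = 0.0456), but its direct values were -0.39 in replicate 1 and 0.07 in replicate 2. For Lyar and Nop14 the fit, which also uses the arrays of the other conditions, thus gave a deeper fall than the direct arrays. The count of 8 was 1 and 2 without the GM-CSF 12-hour and parental 0-hour RNA of replicate 1, and 9 and 3 without those of replicate 2. Of 28 measured genes of sterol and fatty acid synthesis, Sqle and Stard4 fell by 0.60 and 0.47 and 0 rose, with a median of -0.23. These 2 genes are 7.1% of the list, against 2.05% of all symbols that fell. Sqle, squalene epoxidase, had -0.07 and -0.25 in replicate 1 and -1.05 and -0.85 in replicate 2, so this fall came mainly from replicate 2. The count of 2 was 3 without the GM-CSF 12-hour RNA of replicate 1, 1 without the parental 0-hour RNA of replicate 1 and 0 without either RNA of replicate 2.

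Few granule genes passed. Of 13 measured primary granule genes, 2 fell (15.4%, against 2.05% of all symbols), 0 rose and 11 were negative. Their median was the lowest of the lists, at -0.47. Elane, neutrophil elastase, read -0.94, -1.07, -1.98 and -1.93 and fell by 1.26 (SE 0.33, adjusted p = 0.042). Igfbp4 fell by 0.77 (SE 0.17, adjusted p = 0.0146). Prtn3, proteinase 3, stood at -1.05 (adjusted p = 0.125) and Mpo, myeloperoxidase, at -0.56 (adjusted p = 0.125), neither passing. Elane had adjusted p-values from 0.133 to 0.37 when any of the 4 RNAs was left out. The count of 2 was 0 without either RNA of replicate 1 and 1 without either RNA of replicate 2.

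Of 20 measured late granule genes, 0 passed in either direction, 16 were negative and the median was -0.27. With 3.56% of all symbols passing, a list of this size may well hold no call. Ltf, lactoferrin, had the lowest value at -1.92 (SE 0.60, adjusted p = 0.0852), with -1.47 in replicate 1 and -2.64 in replicate 2. Ngp stood at -1.81 (adjusted p = 0.0588) and Camp, cathelicidin, at -1.13 (adjusted p = 0.2). Hp, haptoglobin, had the highest value of the list at 0.48 (adjusted p = 0.0668). Lta4h, which makes leukotriene B4, fell by 0.91 (SE 0.22, adjusted p = 0.0268) and is among the 15 deepest falls.

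**Figure D3:**
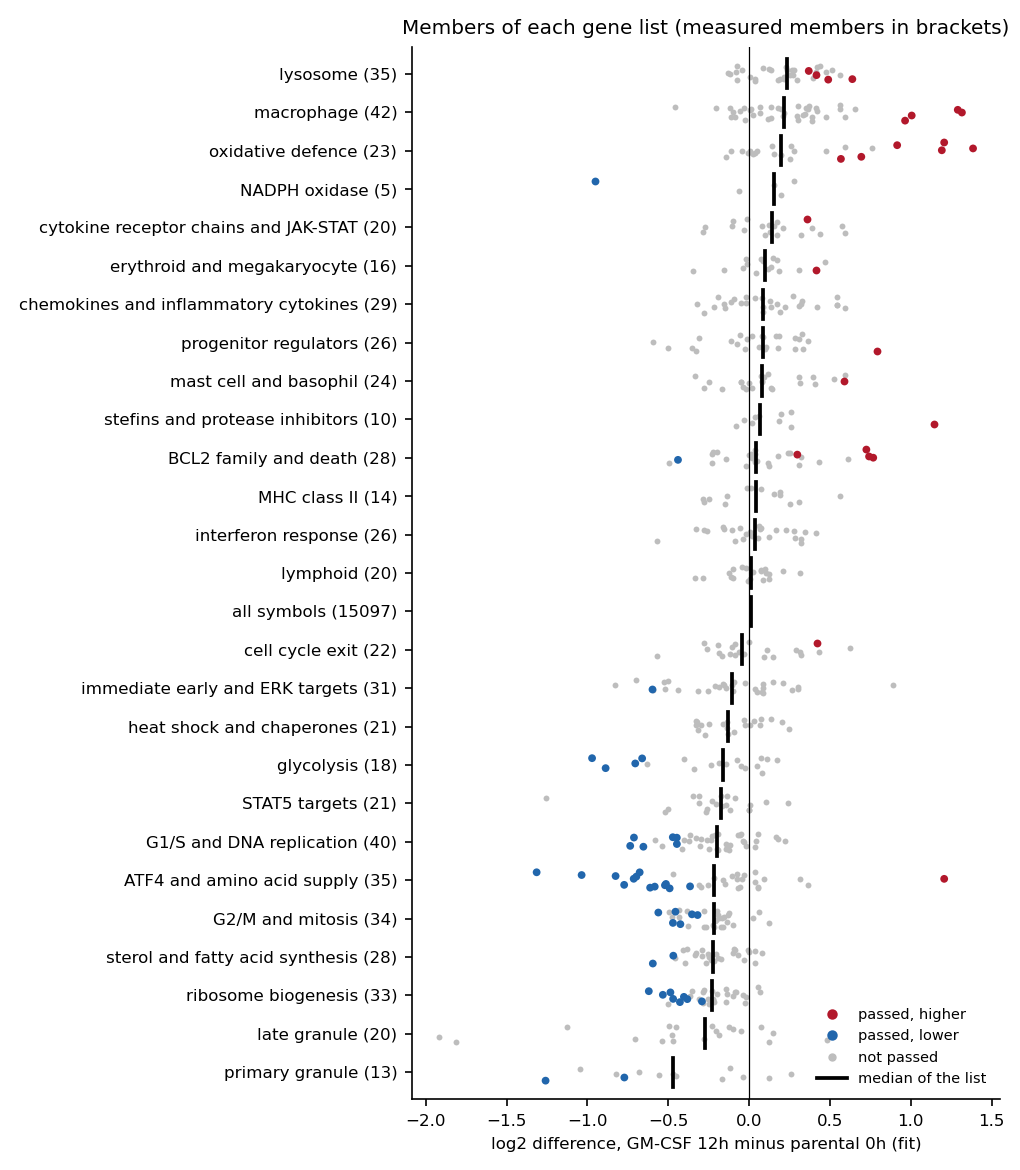
Members of 26 gene lists, with the fitted log2 difference of GM-CSF 12h minus parental 0h on the horizontal axis and lists ordered by their median (black bar); red and blue points passed higher and lower, and grey points did not pass. Medians run from -0.47 in the primary granule list to 0.23 in the lysosome list, and the bar for all 15097 symbols stands at 0.01.

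The remaining deep falls had other roles. Ifitm1, an interferon-induced membrane protein, read -0.64, -1.12, -0.89 and -1.11, with a fitted -0.90 (SE 0.17, adjusted p = 0.00724). Sfrp2, a secreted Wnt antagonist, read -1.67 and -1.48 in replicate 1 and -0.50 and -0.08 in replicate 2, with a fitted -1.05. Prelid2 read -1.51, -1.89, -0.27 and -0.06, with a fitted -1.01, so most of its fall came from replicate 1. Neb, the muscle protein nebulin, fell by 1.05 through 1 of its 4 probes, and Trav9d-3, a T cell receptor alpha variable segment, by 0.95 through 2 of its 6. The Trav segments are a family of similar sequences, so that probe is uncertain.

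Receptor chains and early targets of the shared beta chain passed at 12 hours about as rarely as symbols at large, of which 3.56% passed. Of 20 measured cytokine receptor chains and JAK-STAT genes, 1 rose and 0 fell, with a median of 0.14. The riser was Il5ra, the interleukin 5 receptor chain that pairs with the same beta chain, at 0.36 (SE 0.08, adjusted p = 0.0196). That count of 1, or 5.0% of the list, was 3 without the GM-CSF 12-hour RNA of replicate 2 and 0 without any other of the 4 RNAs. Csf2ra, the GM-CSF receptor alpha chain, read 0.36, 0.34, -0.23 and -0.21, with a fitted 0.13 (SE 0.15, adjusted p = 0.75), so the replicates had opposite signs. Il3ra stood at 0.15 (adjusted p = 0.223) and Csf3r at -0.03 (adjusted p = 0.919). Csf2rb2, the beta chain specific to IL-3 in mice, read 1.09, 0.75, 0.08 and 0.13, with a fitted 0.58 (SE 0.22, adjusted p = 0.173). Csf2rb, Csf1r and Cebpe had no measured probe.

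Of 21 measured STAT5 targets, 0 passed, 17 were negative and the median was -0.17. With 3.56% of all symbols passing, a list of this size may well hold no call. The lowest was Tnfsf11, the cytokine RANKL, at -1.25 (SE 0.44, adjusted p = 0.127). Cish stood at -0.14 (adjusted p = 0.79), Socs2 at -0.26 (adjusted p = 0.115) and Pim1 at -0.34 (adjusted p = 0.177). Socs1, an inhibitor of JAK kinases, had -0.52 (SE 0.16, adjusted p = 0.0846), with -0.06 and -0.45 in replicate 1 and -0.81 and -0.66 in replicate 2. Of 31 immediate early genes and ERK targets, 1 fell (3.23% of the list), Etv5 at -0.60 (SE 0.15, adjusted p = 0.0268) through 1 of its 2 probes, and 0 rose. Without the parental 0-hour RNA of replicate 2, 5 of these fell and 1 rose, and without that of replicate 1, 0 fell and 1 rose. With either GM-CSF 12-hour RNA left out, 0 passed. Junb had the highest value, at 0.89 (adjusted p = 0.0647), with 0.02 in replicate 1 and 2.00 in replicate 2, and Fosb the lowest, at -0.83 (adjusted p = 0.25). Fos stood at -0.70 (adjusted p = 0.111), Egr1 at -0.60 (adjusted p = 0.398), Id1 at -0.50 (adjusted p = 0.184) and Myc at -0.27 (adjusted p = 0.417). Fos read -0.54, -2.19, -0.29 and 0.07, so a single array carried much of its value.

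Among progenitor regulators the gene that passed was Cebpd, a C/EBP transcription factor of myeloid maturation and inflammation. It read 0.61, 1.02, 0.93 and 1.46, with a fitted 0.79 (SE 0.17, adjusted p = 0.014), and 1 of 26 measured members rose and 0 fell. Cebpd had an adjusted p of 0.189 without the GM-CSF 12-hour RNA of replicate 2, 0.692 without the parental 0-hour RNA of replicate 1 and 0.0649 with arrays scaled to a common spread. Without the direct arrays it stood at 0.39, with an adjusted p of 0.148. Cebpb stood at 0.37 (adjusted p = 0.127), Spi1 (PU.1) at 0.29 (adjusted p = 0.114), Id2 at 0.18 (adjusted p = 0.743), Gata2 at 0.02 (adjusted p = 0.974) and Cebpa at -0.03 (adjusted p = 0.968). Of 24 mast cell and basophil genes, Mitf rose by 0.59 through 1 of 4 probes and 0 fell, with a median of 0.08 and Cpa3, mast cell carboxypeptidase, highest at 0.59 (adjusted p = 0.194). Of 16 erythroid and megakaryocyte genes, Itgb3 rose by 0.42 and 0 fell, with a median of 0.10. Of 20 lymphoid genes, 0 passed, with a median of 0.01. Mitf passed in none of the fits that left out 1 of the 4 RNAs, and Itgb3 passed without either RNA of replicate 2 but not without either of replicate 1. Of 29 chemokines and inflammatory cytokines, 14 MHC class II genes, 26 interferon response genes and 21 chaperones, 0 passed in either direction. Over all symbols 3.56% passed, so lists of these sizes, like the regulator and lineage lists above, may hold 1 call or none.

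Around 12 hours, some rises were already smaller at the next time and others larger. Relative to GM-CSF at 6 hours, 26 probes were higher at 12 hours (0.119%) and 48 lower (0.22%), or 0.339% in all, and relative to 12 hours, 269 were higher at 24 hours (1.23%) and 107 lower (0.491%), or 1.73%. Slc15a3 stood at 1.52, 1.40, 0.92, 0.42 and 0.54 above parental 0 hours at 6, 12, 24, 48 and 72 hours. Sqstm1 stood at 1.39, 1.19, 0.20, -0.53 and -0.49 at these times, and its step from 12 to 24 hours was -0.995 (SE 0.21, adjusted p = 0.0235). Clec4n stood at 0.54, 1.32, 2.44, 1.89 and 2.34, and was 1.12 higher at 24 hours than at 12 (SE 0.26, adjusted p = 0.0316). Each of these steps past 12 hours reads against the same 12-hour RNAs, so an error in them enters the 12-hour value and the step with opposite sign.

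Cebpd stood at -0.31, 0.79, 0.90, 0.77 and 0.86 from 6 to 72 hours and had the largest rise of the step to 12 hours, at 1.11 (SE 0.17, adjusted p = 0.00763). Asns had the largest fall of that step, at -0.90 (SE 0.13, adjusted p = 0.00763), followed by Yars, a tRNA synthetase, at -0.79 and Clic4, an intracellular chloride channel protein, at -0.78. Atf4 stood at -0.30, -1.31, -1.33, -0.62 and -0.83, and its step to 12 hours was -1.02 (adjusted p = 0.0555). Dynll1 and Atm, the other genes with the largest rises of that step, were at -0.04 and 0.16 relative to parental 0 hours.

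Proliferation and ribosome genes that were low at 12 hours were in part higher again at 24 hours. The G1/S median was -0.21, -0.20, -0.05, 0.04 and -0.08 from 6 to 72 hours, and that of ribosome biogenesis -0.14, -0.23, 0.09, -0.06 and -0.40. Pclaf was 0.77 higher at 24 hours than at 12 (SE 0.17, adjusted p = 0.0264) and Lyar 0.72 higher (SE 0.11, adjusted p = 0.0077). Myc and Id1 had not passed at 12 hours, so no fall was shown for them. From 12 to 24 hours Myc was 0.79 higher (SE 0.16, adjusted p = 0.0183) and Id1 0.82 higher (SE 0.20, adjusted p = 0.0398). The late granule median was -0.43, -0.27, -0.01, 0.14 and 0.39 over the same times. Saa2, an acute phase apolipoprotein, and Slc11a1, the phagosomal metal transporter NRAMP1, had the largest steps beside Clec4n, at 1.30 and 1.01 higher at 24 hours than at 12. Il18r1, Sqstm1 and Lat had the largest drops, at -1.06, -0.995 and -0.69. These counts depended on single RNAs: without the GM-CSF 12-hour RNA of replicate 1, 35 probes passed from 6 to 12 hours and 24 from 12 to 24 hours, and without the 6-hour RNAs of replicates 1 and 2 the first count was 9 and 590.

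**Figure D4:**
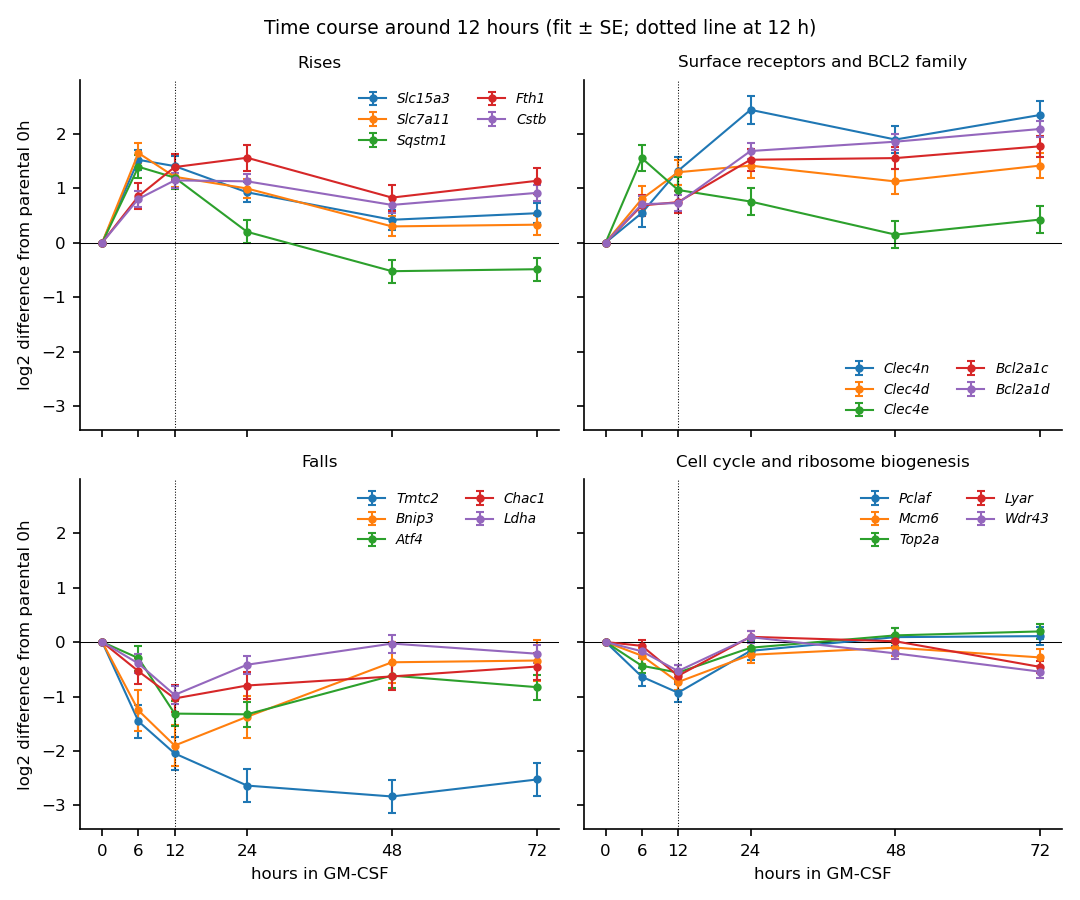
Fitted log2 difference from parental 0h (vertical axis) against hours in GM-CSF (horizontal axis) for 20 named genes in 4 panels. Points are fits ± SE, with 2 RNAs per time and the spread pooled over all 18 conditions, and the dotted line marks 12 hours. Sqstm1 is at 1.19 at 12 hours and 0.20 at 24 hours, Clec4n at 1.32 and 2.44, and Pclaf at -0.93 and -0.16.

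The mutant lines, left without IL-3 and without GM-CSF for the same 12 hours, offer a second setting of IL-3 withdrawal. In FI-Delta cells 1102 probes passed between 12 and 0 hours (5.06%), with 1.78% of probes higher and 3.28% lower. In V449E cells 278 passed (1.28%), with 0.537% higher and 0.739% lower. All 15 highest rises of the GM-CSF response were positive in both lines, and 6 passed in FI-Delta cells and 6 in V449E cells. Of the 15 deepest falls, 14 were negative in FI-Delta cells and 15 in V449E cells, and 8 and 7 passed. All 15 rises were smaller in FI-Delta cells and 14 in V449E cells, and 13 and 12 of the falls were less deep. These genes were chosen as extremes in GM-CSF, so smaller values in the other lines follow at least in part from that choice. The 0-hour RNAs of the 3 lines are different samples, but the fit is shared and arrays pairing GM-CSF with FI-Delta RNAs link the levels. In replicate 2 the arrays against 0 hours lay on print run 2 for GM-CSF and on print run 1 for both mutant lines. Line and print run cannot be told apart in those arrays.

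Slc15a3 stood at 1.40 in GM-CSF, 1.22 in FI-Delta cells and 0.87 in V449E cells, each relative to its own 0 hours. Atf4 stood at -1.31, -1.12 and -1.32 in the same order, and Tmtc2 at -2.04, -2.56 and -1.83. These genes passed in all 3 settings. Bnip3 stood at -1.90 in GM-CSF, -0.90 in FI-Delta cells and -0.27 in V449E cells. Elane stood at -1.26, -0.05 and -0.27, Cybb at -0.96, 0.22 and -0.03, and Clec4n at 1.32, 0.66 and 0.38. Myc, at -0.27 in GM-CSF, stood at -0.94 in FI-Delta cells and -0.63 in V449E cells, passing in both lines. Cish stood at -0.14, -0.36 and -0.94 and passed in V449E cells only, while its differences between responses did not pass, at 0.23 (adjusted p = 0.9999) from FI-Delta and 0.80 (adjusted p = 1) from V449E.

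No difference between responses passed when it was tested itself. For GM-CSF minus FI-Delta 0 probes passed (limma, smallest adjusted p = 0.9999), with 419 (1.92%) at an unadjusted p under 0.05, and for GM-CSF minus V449E 0 passed (smallest adjusted p = 0.851), with 420 (1.93%). These shares lie below those that the unadjusted threshold allows under no difference, so the test was conservative here. The median SE of such a difference was 0.13, against 0.09 for a single response. For Bnip3 the difference from the V449E response was -1.63 (SE 0.54), and for Elane the difference from the FI-Delta response was -1.21 (SE 0.47). Both genes were chosen for deep falls in GM-CSF, which by itself enlarges such differences. The missing calls do not show that the responses were alike.

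**Figure D5:**
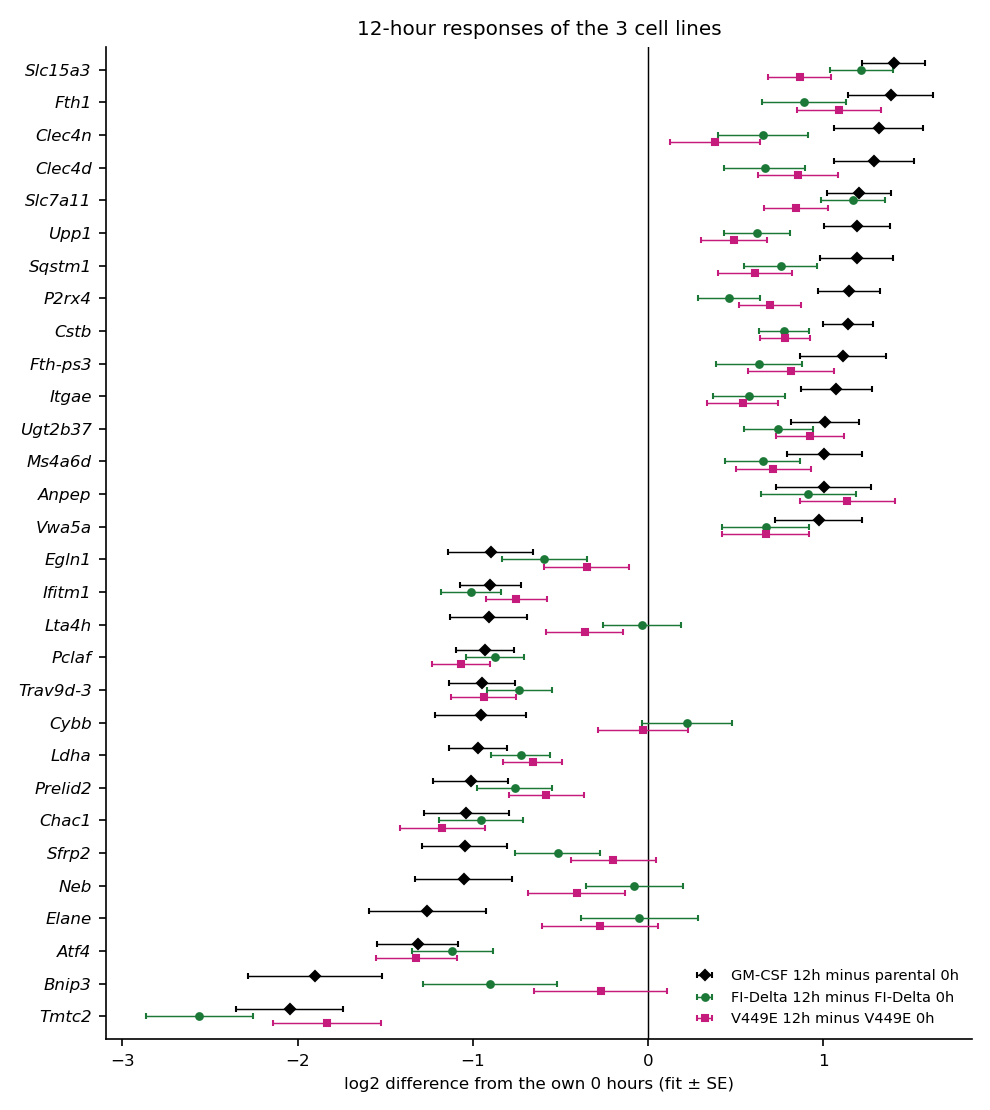
Fitted 12-hour response ± SE (2 RNAs per condition, spread pooled over all 18 conditions) of the 30 genes with the highest rises and deepest falls in GM-CSF, each line relative to its own 0 hours: GM-CSF 12h minus parental 0h (black), FI-Delta (green) and V449E (pink), on a log2 axis. Atf4 lies at -1.31, -1.12 and -1.32 in the 3 settings, while Bnip3, Elane and Cybb lie lower in GM-CSF than in either mutant line. These differences did not pass the test between responses, and the genes were chosen by their GM-CSF values.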

How the data were processed

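Spotted 2-colour arrays measured the RNA of FDB1 cells (116 arrays, 58 dye-swap pairs, 18 conditions with 2 RNAs each). The deposited values are read as log2 ratios; the authors normalised each array and gave the 2 print runs a common spot order, per the labels' descriptions, and limma is named in the submitters' processing notes without a version. How background was corrected and arrays were normalised is not given in the sources used here. No intensities were used, so signal over background is unknown. The tests rest on 2 RNAs per condition and on a spread estimated over all 18 conditions.

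Of 23040 probes, 1243 controls were left out. Symbols came from the platform annotation: 16651 tested probes had 1 symbol, 137 several and 5009 none. Dye-swap pairs were averaged, signs turned, and least squares within each replicate number gave each RNA a level. Differences were tested with limma 3.58.1 (R 4.3.3) on the 36 levels with replicate as a block, because arrays pair only RNAs of the same replicate number; 17 residual degrees of freedom remained. Benjamini-Hochberg adjustment was over 21797 probes, 2-sided. The fit was tested on simulated data.

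Named were the 15 largest rises and falls among passing probes whose 4 direct arrays shared a sign, up to 4 passing members of each list, a set of receptor, signalling and lineage genes whatever their values, and in other comparisons the 3 largest in each direction. Other members named beside a count were chosen after their values were seen. The comparison, the members and the gene lists were chosen with earlier results of these data known. A symbol with several probes is given by its probe of lowest p, which favours passing. Promoter windows came from RefSeq (GRCm38.p6). Alternatives left out RNAs or arrays, or changed centring, scaling, weights, the block or the unit of the fit.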

Additional observations from a re-analysis of the deposited data

Results flagged for a closer look

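Differences between times in GM-CSF that passed their own test are listed for the genes named above, each as a fitted log2 difference of the later minus the earlier time (limma, 2 RNAs per time). From 12 to 24 hours, Clec4n was higher by 1.12, Bcl2a1d by 0.95, Bcl2a1c by 0.78 and Casp8 by 0.38, the last of which had fallen by 12 hours. Proliferation and ribosome genes that were lower at 12 hours than at 0 were higher at 24 hours than at 12: Pclaf by 0.77, Lyar by 0.72, Wdr43 by 0.62 and Nop58 by 0.42. The lactate transporter Slc16a1 was higher by 0.52. Myc, Id1 and Cebpb, which did not pass at 12 hours, were higher at 24 hours than at 12 by 0.79, 0.82 and 0.50. Sqstm1 was lower at 24 hours than at 12 (-0.995), as were Mxd4 (-0.45) and the lysosomal peptidase Tpp1 (-0.39), all of which had risen by 12 hours.

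Between 6 and 12 hours, Cebpd was higher by 1.11 at the later time and Lyar lower (-0.55). Every step shares the 12-hour RNAs with the comparison that chose most of these genes, and without the GM-CSF 12-hour RNA of replicate 1 the probes passing from 12 to 24 hours numbered 24 in place of 376.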

How the results depend on the processing

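Members named only beside a count, such as Nfe2l2, Gclm and Psat1, were not in this check of named genes. None of the checked genes that passed changed sign under any alternative listed here, while Cebpa, Gata2, Csf2ra, Csf3r and Egr1, which did not pass, changed sign under at least 1. Of 984 values for named genes, 733 kept their side of the threshold, 238 no longer passed and 13 newly passed. These values include genes that had not passed as reported and so could not lose a call. For GM-CSF 12 hours against parental 0 hours, 637 probes passed as reported. This became 106 with only the direct arrays (54.7% of them higher, against 41.8% as reported; 83 were among the 637), 242 with arrays scaled to a common spread, 2590 with dye-swap means as units of the fit, which counts arrays of the same RNAs as separate, and 2198 without the direct arrays. Leaving out each RNA gave 29 to 721. For 12 against 6 hours, 74 became 44, 1, 39 and 3 with direct arrays only, scaled arrays, dye-swap units and levels weighted by precision, and leaving out each RNA gave 9 to 590. For 24 against 12 hours, 376 became 13, 176, 158 and 0 in the same order, and leaving out each RNA gave 24 to 518. GM-CSF minus FI-Delta responses, 0 as reported, gave 4 with direct arrays and 259 with dye-swap units, and 0 to 6 over RNAs left out; GM-CSF minus V449E gave 16, 14 and 0 to 3. Without the replicate block the counts were 855, 152 and 605 for the comparisons with 0, 6 and 24 hours. The cause of these shifts was not tested. Of 338 list medians under alternatives, 289 moved by less than the spread between replicates. Dye-swap units, precision weights, a robust estimate of variance and no replicate block leave every median as it was, so those medians could not move. The spread is that between the replicate medians of the same list, so lists whose replicates differ most have the widest allowance. Signal over background is unknown, so dim probes could not be set apart.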
